A study of Mus musculus with 6 samples.

Results

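The complement and coagulation genes form a set of 44 genes out of 23394 in the files. The set is a list of named members of both cascades with no threshold on measured values, but it was drawn up with earlier results of these data known. They were grouped by the cells taken as their main makers: 28 hepatocyte-made genes, 6 leukocyte-made genes and 10 genes with several known sources. A class name does not exclude other makers, and which cells made a transcript in these libraries was not tested. Each gene was represented by its most abundant transcript, as a mean over the 6 libraries, and the classes were compared between KO and WT libraries.

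Complement is a chain of plasma proteases and binding proteins that coats targets with fragments of C3 and C4 and ends in a membrane pore. Coagulation is a chain of plasma proteases that ends in thrombin, which turns fibrinogen into fibrin, while plasmin dissolves the clot. Hepatocytes secrete most of these proteins into plasma. Macrophages, including the Kupffer cells of the liver, are the main makers of C1q, the recognition protein of the classical complement pathway. They are among the leukocytes that make properdin, the stabiliser of the alternative pathway, and carry the receptors for the fragments C3a and C5a.

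The libraries came from male C57BL/6 mice, 3 months old, that had all received carbon tetrachloride (CCl4) into the peritoneal cavity, a hepatotoxin used to provoke experimental liver fibrosis. Cells bearing F4/80, a macrophage surface antigen, were taken from digested liver by magnetic selection, and libraries were made from polyadenylated RNA by a strand-specific method. Of the 6 libraries, 3 were of genotype WT and 3 of genotype KO, written here as WT 1 to 3 and KO 1 to 3. The labels name no targeted gene, promoter or Cre driver, so the labels could not be checked by the level of a target, and they do not say that each library is a separate animal. The p-values therefore measure the spread between these libraries, which may be technical. All values are normalised counts, a read count divided by a factor for its library.

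The libraries held 10790842 to 22157238 reads, counted on 1 transcript per gene, and mitochondrial transcripts took from 6.19% of the reads in WT 3 to 27.5% in WT 2. These libraries stood apart for the set: WT 3 was the lowest library for 25 of 28 hepatocyte-made genes, against 19.7% of all tested genes, and WT 2 was the highest of the 6 for C1qa, C1qb, C1qc and Cfp. Adgre1, the gene of F4/80, was read in every library, at 4441 to 7644 normalised counts, and each of the 12 macrophage markers was above 0 in all libraries. Alb, the hepatocyte gene of albumin, was read in every library too, at 18082 or more.

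The regions before the start sites of the 3 fibrinogen genes, of the neighbours F7 and F10, and of 2 C1q genes are shown because these genes carry the main contrasts among the members. The sequences are from RefSeq, build GRCm38.p6, 5′ to 3′ on the gene's strand and up to 250 bases before the RefSeq start. The windows of Fga and C1qc were shortened by 77 and 151 bases, because the GENCODE model of the same gene starts further upstream. Capitals mark matches to any of 5 short motifs, searched on both strands.
Fgg, chr3:83007474-83007723, plus strand: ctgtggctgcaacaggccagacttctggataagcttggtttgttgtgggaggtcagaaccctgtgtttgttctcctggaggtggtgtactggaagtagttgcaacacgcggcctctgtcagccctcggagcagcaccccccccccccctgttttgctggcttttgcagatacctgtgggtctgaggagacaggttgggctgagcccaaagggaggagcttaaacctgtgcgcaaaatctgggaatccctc
Fga, chr3:83025903-83026075, plus strand: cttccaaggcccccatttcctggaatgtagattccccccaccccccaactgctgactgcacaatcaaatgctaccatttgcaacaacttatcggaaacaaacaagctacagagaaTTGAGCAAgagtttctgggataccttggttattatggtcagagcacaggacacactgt
Fgb, chr3:83049864-83050113, minus strand: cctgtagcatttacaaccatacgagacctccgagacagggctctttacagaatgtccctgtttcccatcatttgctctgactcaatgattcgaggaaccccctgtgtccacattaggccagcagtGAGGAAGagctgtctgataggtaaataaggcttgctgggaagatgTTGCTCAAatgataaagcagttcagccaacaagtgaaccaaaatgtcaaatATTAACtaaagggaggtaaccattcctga
F7, chr8:13025784-13026033, plus strand: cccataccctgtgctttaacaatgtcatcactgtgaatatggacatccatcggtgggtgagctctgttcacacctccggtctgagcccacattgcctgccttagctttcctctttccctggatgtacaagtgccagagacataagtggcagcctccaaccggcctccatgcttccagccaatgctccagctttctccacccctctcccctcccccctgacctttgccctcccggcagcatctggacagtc
F10, chr8:13037058-13037307, plus strand: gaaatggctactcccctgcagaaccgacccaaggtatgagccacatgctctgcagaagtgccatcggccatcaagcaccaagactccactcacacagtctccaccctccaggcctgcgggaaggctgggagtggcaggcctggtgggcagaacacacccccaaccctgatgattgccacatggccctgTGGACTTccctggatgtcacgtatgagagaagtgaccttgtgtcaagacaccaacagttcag
C1qb, chr4:136886201-136886450, minus strand: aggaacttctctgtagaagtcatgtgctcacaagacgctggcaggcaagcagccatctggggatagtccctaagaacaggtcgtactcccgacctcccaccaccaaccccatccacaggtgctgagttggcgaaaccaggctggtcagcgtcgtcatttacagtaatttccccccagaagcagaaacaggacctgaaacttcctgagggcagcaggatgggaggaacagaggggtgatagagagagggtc
C1qc, chr4:136893066-136893164, minus strand: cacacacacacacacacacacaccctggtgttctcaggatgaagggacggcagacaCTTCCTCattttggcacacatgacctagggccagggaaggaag

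In these windows Fgb matched the C/EBP motif TTGCNNAA as TTGCTCAA and Fga matched it on the other strand as TTGAGCAA. Both also matched the HNF1 core motif GTTAAT on the other strand, as ATTAAC. In Fga that motif lay 43 to 38 bases before the RefSeq start, in the stretch that is not printed, and in Fgb 29 to 24 bases before it. The F10 window held an HNF4 core motif, AAGTCCA, read as TGGACTT on the strand shown, while no motif matched in the windows of Fgg, F7 and C1qb. Fgb and C1qc matched the PU.1 motif GAGGAAG, in C1qc on the other strand as CTTCCTC. HNF1, HNF4 and C/EBP are transcription factors of hepatocytes, and PU.1 is a transcription factor of macrophages. A RefSeq window was found for 34 of the 44 members.

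Over those 34 members the HNF1 core motif was present in 5 of 23 hepatocyte-made genes (Hc, C8a, C8b, Fga and Fgb), in 1 of 5 leukocyte-made genes and in 1 of 6 genes of several sources. It was present in 6.52% of all 27025 promoters of the same length. The C/EBP motif was present in 6 of 23, 0 of 5 and 2 of 6 windows, against 9.55% of all promoters. The HNF4 core motif was in 1 of the 23 hepatocyte-made windows and in neither other class, against 3.32% of all. The PU.1 motif was in 1 of 23, 1 of 5 and 0 of 6 windows, against 10.4% of all, and the TATA box motif TATAAA was in 2 of 23, 1 of 5 and 0 of 6, against 12.97%. No match overlapped another in the windows shown, and a match shows only that these letters are present.

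The question for the set was how cascade genes of each source differed with genotype. All 28 hepatocyte-made genes had a higher mean log2 level in the KO libraries, with a median log2 change of 1.59, while the 6 leukocyte-made genes had 3 changes above 0, 3 below 0 and a median of 0.00. The 9 tested genes of several sources lay between, all above 0, with a median of 0.60. Over all 15619 tested genes the median log2 change was 0.05 and 54.2% were above 0. A bulk library cannot tell fewer cells of a type from less RNA per cell.

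Most of the hepatocyte-made genes did not pass the test. At an adjusted p under 0.05 (limma's moderated test on log2(value + 1), Benjamini-Hochberg adjustment over all tested genes), 3 of 28 hepatocyte-made genes rose, C8b, C9 and Mbl1, where 2.09% of all tested genes were called higher. Of the leukocyte-made genes none passed, where 0.352% of all genes were called lower, and none had an unadjusted p under 0.05 in limma, edgeR or DESeq2. Among the genes of several sources Cd59a rose. Of the 44 members edgeR's quasi-likelihood test, run on recovered reads, called Mbl1 alone, where it called 1.41% of all genes higher. DESeq2 called 11 hepatocyte-made genes and Cd59a higher, where it called 6.27% of all genes higher. At an unadjusted p under 0.05 there were 24 of 28 hepatocyte-made genes higher, against 12.1% of all genes, and 0 of 28 lower, against 5.9%. The WT and KO values did not overlap for 10 of the 28, against 13.7% of all genes that were higher without overlap, and 23 of 28 had a log2 change of at least 1, against 9.89% of all genes.

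**Figure D1:**
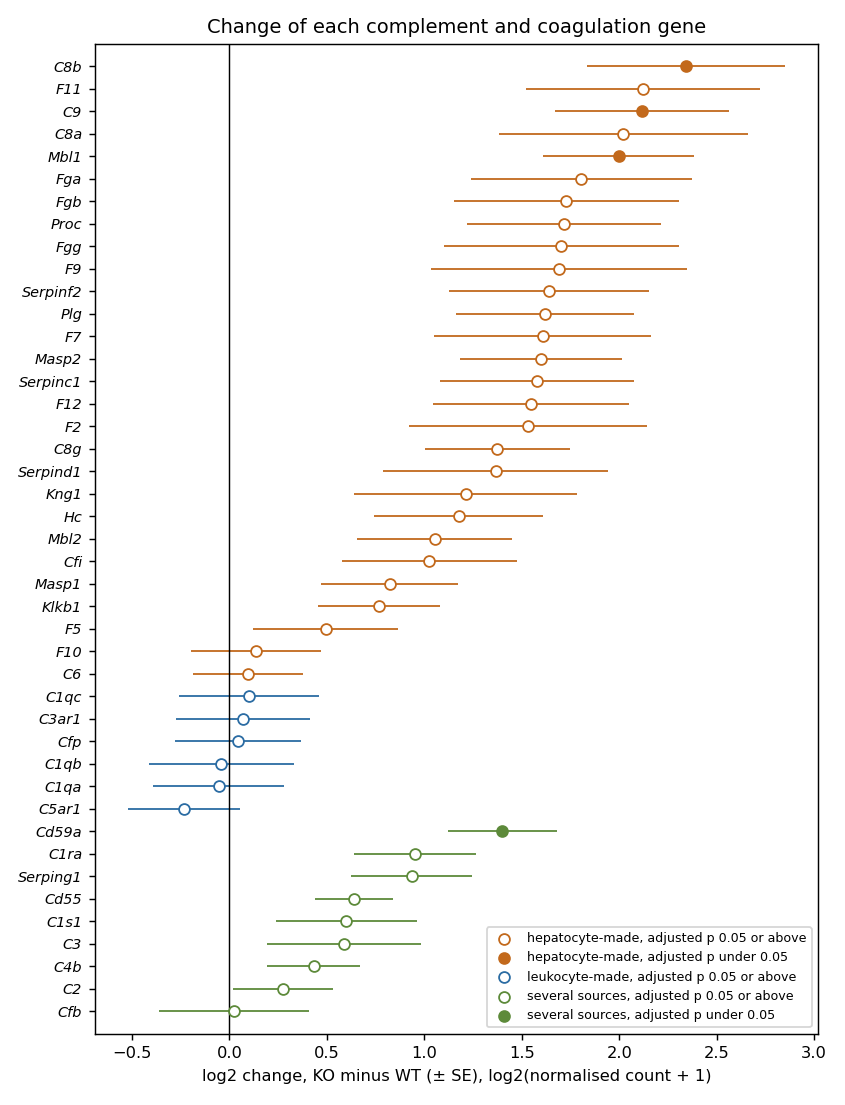
Log2 change of each tested member, KO minus WT, on the scale of log2(normalised count + 1), with bars of 1 standard error and 3 libraries per genotype. Filled points passed at an adjusted p under 0.05 (C8b, C9, Mbl1 and Cd59a). The hepatocyte-made genes lie from 0.09 (C6) to 2.34 (C8b) and the leukocyte-made genes from -0.23 (C5ar1) to 0.10 (C1qc).

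The levels of the C1q chains and of properdin overlapped between genotypes, and their mean changes were smaller than the standard error. C1qa (ENSMUSG00000036887), the A chain of C1q, was at 5450, 10335 and 3877 normalised counts in WT 1 to 3 and at 4846, 5806 and 6937 in KO 1 to 3. All 3 KO values lay inside the WT range, and the log2 change was -0.05 (SE 0.34, limma adjusted p = 0.959). C1qb, the B chain, was at 7888, 14179 and 4614 in WT and at 6536, 7691 and 9431 in KO libraries. C1qc, the C chain, was at 5010, 12047 and 4309 in WT and at 5839, 7142 and 7678 in KO libraries. In each chain WT 2 was the highest and WT 3 the lowest of the 6 libraries. The log2 changes of C1qb and C1qc were -0.04 (SE 0.37) and 0.10 (SE 0.36).

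Cfp, which encodes properdin, was at 3315, 6720 and 2640 normalised counts in WT and at 3441, 3922 and 4788 in KO libraries (log2 change 0.05, SE 0.32). It followed the C1q chains library by library, with WT 2 highest and WT 3 lowest. C3ar1, the receptor for C3a, was at 922, 1241 and 611 in WT and at 732, 717 and 1548 in KO libraries (log2 change 0.07, SE 0.34). C5ar1, the receptor for C5a, was at 1743, 1519 and 928 in WT and at 1251, 817 and 1477 in KO libraries (log2 change -0.23, SE 0.29). Neither receptor shared the WT 2 peak of C1q: C3ar1 was highest in KO 3 and C5ar1 in WT 1. The smallest limma adjusted p of the 6 leukocyte-made genes was 0.736, for C5ar1. The sign of these small changes depended on single libraries, and the median of the class was 0.35 without WT 2 and -0.30 without WT 3.

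Markers of macrophages and of other cells are given beside these genes. Of the 12 macrophage and Kupffer cell markers, 3 were above 0 and none passed, with a median log2 change of -0.19. Their summed level was 58966 to 133100 in WT and 54021 to 64216 in KO libraries. Within the list Marco, a scavenger receptor, was at 8525 to 39406 in WT and 5467 to 6660 in KO libraries, while Clec4f, a Kupffer cell lectin, was at 3142 to 3274 and 4727 to 9342. Of the 7 monocyte markers 6 were below 0 and 1, Cx3cr1, a chemokine receptor, fell, with a median log2 change of -0.61. Cx3cr1 was at 5737, 2988 and 2719 in WT and at 1518, 1432 and 1344 in KO libraries, without overlap (log2 change -1.33, SE 0.27, limma adjusted p = 0.0433). The summed level of the monocyte list was 60503 to 82543 in WT and 81052 to 202504 in KO libraries, most of it from Fn1, which encodes fibronectin and was the 1 marker above 0. None of the 5 erythroid markers passed, but each was higher on average in KO libraries, by 2.30 to 3.43 in log2. Their summed level was 1727 to 24927 in WT and 23674 to 201393 in KO libraries, highest in KO 1. No marker of neutrophils, platelets, cholangiocytes, B cells, T and NK cells or dendritic cells passed, and the medians of these lists ran from -0.42 to 1.02. The part of these cells in the levels of the leukocyte-made genes was not tested.

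The 3 chains of C1q are encoded side by side on the minus strand of chromosome 4 (GRCm38), C1qb at 136880129 to 136886187, C1qc at 136889804 to 136893065 and C1qa at 136895917 to 136898803. Per kilobase of the kept transcript, C1qa made up 31.3% ± 1.08, C1qb 39.9% ± 3.43 and C1qc 28.8% ± 3.30 of the WT C1q transcripts (SD, n = 3). In KO libraries the shares were 30.3% ± 0.393, 38.9% ± 0.951 and 30.9% ± 1.33. The mean shares differed little between genotypes, but they varied among the WT libraries, whose C1qb level differed by up to 3.07-fold. The C1qb share was 43.5% in WT 1 and 36.7% in WT 3, and the C1qc share was 25.0% and 31.0%. The shares depend on the length used, and with the summed exon length of the gene C1qc had 20.1% in WT and 21.8% in KO libraries.

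Among 5789 genes with a mean of at least 500 normalised counts, the genes outside the set closest to C1qa were Sdc3, Slc7a8, Tgm2, Frmd4b and Pld2. Closeness was the root mean square difference of log2 values, each centred on its mean over the 6 libraries, and it was 0.09 for Sdc3 and 0.16 for Pld2. Within the set, Cfp, C1qb and C1qc were at 0.07, 0.09 and 0.14 from C1qa. These distances describe 6 libraries that share their depth and makeup across genes.

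**Figure D2:**
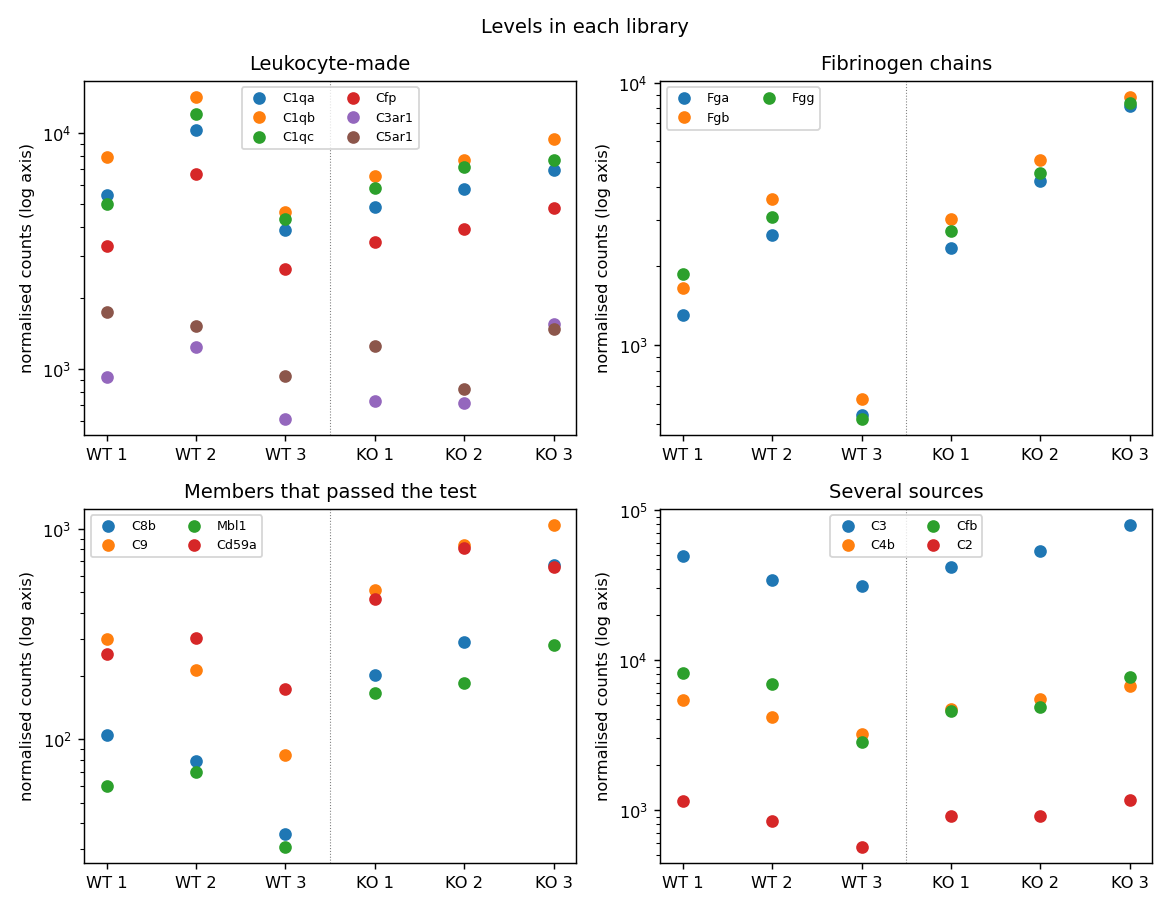
Normalised counts (log axis) in each of the 6 libraries for the leukocyte-made members, the fibrinogen chains, the 4 members that passed the test and 4 members of several sources. WT 2 is the highest library for C1q and Cfp, while the fibrinogen chains run from 524 (Fgg in WT 3) to 8812 (Fgb in KO 3).

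Fibrinogen, the substrate of thrombin, was higher on average in the KO libraries for each of its 3 chains, but no chain passed the test. Fga (ENSMUSG00000028001), the alpha chain, was at 1307, 2626 and 545 normalised counts in WT and at 2342, 4218 and 8118 in KO libraries. Fgb, the beta chain, was at 1647, 3599 and 626 in WT and at 3020, 5098 and 8812 in KO libraries. Fgg, the gamma chain, was at 1868, 3071 and 524 in WT and at 2725, 4542 and 8390 in KO libraries. In all 3 chains WT 2 exceeded KO 1, so the groups overlapped, and the libraries of 1 genotype differed from each other by 2.92- to 5.86-fold. The log2 changes were 1.81 (SE 0.57) for Fga, 1.73 (SE 0.58) for Fgb and 1.70 (SE 0.60) for Fgg, with limma adjusted p of 0.127, 0.151 and 0.174.

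The fibrinogen genes lie within 83007724 to 83049863 on chromosome 3 (GRCm38), Fgg and Fga on the plus strand and Fgb on the minus strand. Per kilobase of the kept transcript the chains stood in nearly the same proportion in both genotypes. Fgg made up 46.0% ± 4.54, Fga 32.0% ± 3.33 and Fgb 22.0% ± 1.79 of the WT fibrinogen transcripts (SD, n = 3), and 44.8% ± 0.729, 33.4% ± 1.51 and 21.8% ± 0.935 in KO libraries. The genes outside the set with profiles closest to Fga were Apoh, 1300017J02Rik, Itih1, Vtn and Pzp, at 0.13 to 0.20, of which Apoh encodes beta-2-glycoprotein I and Vtn vitronectin, both plasma proteins. Within the set Fgb, Serpinf2 and F2 were closest, at 0.11, 0.13 and 0.17.

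Thrombin and the proteases that lead to it followed, with F10 and F5 as the weakest. F2, which encodes prothrombin, was at 1131, 2338 and 395 normalised counts in WT and at 1557, 2994 and 5429 in KO libraries (log2 change 1.53, SE 0.61, limma adjusted p = 0.227). WT 2 again exceeded KO 1. F11, F9, F7 and F12, the zymogens of other clotting proteases, had log2 changes of 2.12, 1.69, 1.61 and 1.55, and none passed. F11 was the lowest hepatocyte-made member per kilobase, with means of 8.03 in WT and 39.2 in KO libraries, and its normalised counts were 10.3 to 26.3 in WT and 34.6 to 124 in KO libraries. Klkb1, which encodes plasma prekallikrein, and Kng1, which encodes kininogen, the source of bradykinin, had log2 changes of 0.77 and 1.21. Klkb1 overlaps the gene model Gm45753 on the same strand, so its count is uncertain.

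F10, which encodes the protease that activates prothrombin, and its neighbour F7 were singled out after their values were seen. F10 was at 2767, 2755 and 1198 normalised counts in WT and at 1916, 2033 and 3117 in KO libraries. Its groups overlapped, with a log2 change of 0.14 and a standard error of 0.34 (limma adjusted p = 0.88). F7 was at 214, 806 and 203 in WT and at 572, 946 and 1847 in KO libraries, where WT 2 exceeded KO 1, and had a log2 change of 1.61 and a standard error of 0.56 (limma adjusted p = 0.164). The genes are 1498 bp apart on the plus strand of chromosome 8, F7 at 13026034 to 13035809 and F10 at 13037308 to 13056676 in GRCm38. F5, the cofactor of activated factor X, had overlapping groups too, at 588 to 684 in WT and 457 to 1559 in KO libraries (log2 change 0.49, SE 0.37, limma adjusted p = 0.553).

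The inhibitors of clotting and the genes of fibrinolysis had changes of a similar size to those of the zymogens. Serpinc1, which encodes antithrombin, Serpind1, which encodes heparin cofactor II, and Proc, which encodes protein C, had log2 changes of 1.58, 1.37 and 1.72. Plg, which encodes plasminogen, and Serpinf2, which encodes its inhibitor alpha-2-antiplasmin, had log2 changes of 1.62 and 1.64. The WT and KO values did not overlap for Plg and Serpinc1, while WT 2 exceeded KO 1 for the other 3. Limma adjusted p for these 5 genes ran from 0.0984 (Plg) to 0.253 (Serpind1), so none passed. Serpind1 and Serpinc1 overlap Pi4ka and Zbtb37 on the opposite strand, and the strand setting of the count was not given in the sources used here.

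The 2 genes of the membrane pore that rose were C8b and C9. C8b (ENSMUSG00000029656), the beta chain of C8, was at 105, 78.8 and 35.4 normalised counts in WT and at 203, 291 and 674 in KO libraries. Every KO value exceeded every WT value, and the level was 5.07-fold higher, 2.34 in log2 (SE 0.51, limma adjusted p = 0.0487). C9 (ENSMUSG00000022149), which polymerises into the pore, was at 299, 214 and 84.2 in WT and at 511, 835 and 1045 in KO libraries (log2 change 2.12, SE 0.44, limma adjusted p = 0.0463). C8a and C8g, the other chains of C8, had log2 changes of 2.02 and 1.37 and limma adjusted p of 0.128 and 0.0891. Hc, which encodes C5, the precursor of C5a and of the start of the pore, had a log2 change of 1.18 (adjusted p = 0.192). C8b and C9 kept their call in 1 of the 6 fits without 1 library, that without KO 1, and had limma adjusted p of up to 0.177 in the others.

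C6, the pore protein that binds activated C5, was singled out after its values were seen because it differed least of the 28 hepatocyte-made genes. It was at 1068, 960 and 740 normalised counts in WT and at 627, 1340 and 1095 in KO libraries, with overlapping groups and a change of 0.09 in log2 (SE 0.28, limma adjusted p = 0.907). Per kilobase the C8 chains were unequal, C8g with 69.7% ± 4.56 of C8 transcripts in WT and 57.6% ± 9.63 in KO (SD, n = 3 libraries). C8b had 12.04% ± 3.37 and 19.2% ± 3.83, and C8a 18.2% ± 5.71 and 23.2% ± 5.85. C8g overlaps Fbxw5 on the opposite strand.

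In the lectin pathway, which starts complement on microbial sugars, Mbl1 rose. Mbl1 (ENSMUSG00000037780), a mannose-binding lectin, was at 59.8, 70.4 and 30.9 normalised counts in WT and at 167, 185 and 281 in KO libraries. The groups did not overlap, and the log2 change was 1.997 (SE 0.39, limma adjusted p = 0.0388). Its kept transcript is annotated as a target of nonsense-mediated decay, not as protein coding. Mbl2, the other mannose-binding lectin, was at 67.4 to 197 in WT and 213 to 342 in KO libraries (log2 change 1.05, adjusted p = 0.201). Masp2 and Masp1, the proteases bound to these lectins, had log2 changes of 1.60 and 0.82 (adjusted p = 0.0815 and 0.257), and Cfi, the protease that cleaves deposited C3b and C4b, had 1.03 (adjusted p = 0.268). Mbl1 kept its call in 2 of the 6 fits without 1 library, those without KO 1 and without WT 2. Masp2 overlaps Tardbp and Masp1 overlaps Rtp4, on the opposite strand in each case.

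Single libraries carried part of the size of the hepatocyte-made change. The median log2 change of the 28 genes was 1.59 with all libraries, 0.98 without WT 3, 1.19 without KO 3 and 2.04 without WT 2. The number that passed was 0 without WT 1, without WT 3, without KO 2 or without KO 3, 2 without WT 2 and 6 without KO 1. The number called over all tested genes also moved with the library left out, over the range given in the closing section. The share of all tested genes called in each of these fits is not given here. The counts of members therefore cannot be read as results of the set alone. KO 3 was the highest of the 6 libraries for 26 of 28 genes, against 16.7% of all tested genes, and WT 2 exceeded KO 1 in 18 of 28, against 42.6% of all tested genes.

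Markers of hepatocytes were also higher on average in the KO libraries. All 15 hepatocyte markers were above 0 and 7 rose, with a median log2 change of 1.72. Of all tested genes 2.09% were called higher. The groups did not overlap for 12 of the 15, against 10 of the 28 hepatocyte-made genes and 13.7% of all tested genes. WT 2 exceeded KO 1 in 3 of the 15 markers, against 18 of the 28 genes. The summed level of the markers was 38576 to 121592 in WT and 134681 to 242189 in KO libraries, and none was at 0 in any library. Tat, an enzyme of tyrosine breakdown in hepatocytes, was at 205 to 405 normalised counts in WT and 1312 to 3121 in KO libraries. It had the smallest limma adjusted p of the list, 0.0144. The changes of the list ran from 0.46 in log2, for Cyp3a11, whose groups overlapped, to 2.83. Alb was higher by 1.19 in log2, with a limma adjusted p of 0.283. The part of hepatocyte RNA in the changes of the 28 genes was not tested.

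The genes of several sources included the most abundant member and the least. C3, the central protein of complement, was at 48904, 34050 and 31113 normalised counts in WT and at 41514, 53304 and 79364 in KO libraries. The groups overlapped, and the log2 change was 0.59 (SE 0.40, limma adjusted p = 0.496). C4b, which encodes C4, was at 5367, 4124 and 3205 in WT and at 4729, 5484 and 6729 in KO libraries (log2 change 0.43, SE 0.24, adjusted p = 0.389). Its paralog C4a could share reads with it, since how reads with several matching places were counted was not given in the sources used here. Cfb, the protease of the alternative pathway convertase, was at 8191, 6937 and 2830 in WT and at 4560, 4866 and 7623 in KO libraries (log2 change 0.02, SE 0.39, adjusted p = 0.985). C2, the homologous protease of the classical pathway, had a log2 change of 0.28. C2 and Cfb lie 85 bp apart on chromosome 17 and both overlap the gene model Gm20547 on the same strand, so their counts are uncertain.

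Among the genes of several sources the membrane regulator Cd59a was the only one that passed. Cd59a (ENSMUSG00000032679), which blocks the pore on host cells, was at 255, 303 and 174 normalised counts in WT and at 466, 811 and 661 in KO libraries. The groups did not overlap, and it rose, with a change of 1.40 in log2 and a standard error of 0.28 (limma adjusted p = 0.0417), although it kept its call in 2 of the 6 fits without 1 library, those without KO 1 and without WT 2, and not in edgeR. Cd55, which breaks up convertases on host cells, was at 3371, 3069 and 3336 in WT and at 4295, 6417 and 4732 in KO libraries. It too did not overlap, at 0.64 in log2 (SE 0.20, limma adjusted p = 0.126). C1ra and C1s1, the proteases bound to C1q, had log2 changes of 0.95 and 0.60, and Serping1, which inhibits them, had 0.93, with no call. The groups of C1ra did not overlap. Cfd, which encodes factor D, the activator of factor B, was not tested because its counts were too low. It was at 20.6, 0 and 0 in WT and at 0, 14.3 and 7.61 in KO libraries. Cd59a, C1ra and C1s1 each have a paralog, Cd59b, C1rb and C1s2.

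Stellate cell and endothelial markers are given beside these genes. The stellate cell and myofibroblast list had 8 of 10 genes above 0, of which 1, Col1a1, rose, with a median log2 change of 0.66 and sums of 18194 to 24238 in WT and 28622 to 51721 in KO libraries. All 10 endothelial markers were above 0 and 2, Clec4g and Emcn, rose, with a median of 1.25 and sums of 27890 to 52834 in WT and 56099 to 112303 in KO libraries. Of all tested genes 2.09% were called higher. No marker of either list was at 0 in any library. Their part in the changes of the members was not tested.

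Of 55 other genes of the cascades 48 were tested, and none passed in limma or edgeR, where 2.44% of all tested genes were called in either direction. DESeq2 called 8 of the 48, where it called 9.21% of all genes in either direction. The 48 genes had 36 changes above 0, against 54.2% of all tested genes, and a median log2 change of 0.53. At an unadjusted p under 0.05, 12.1% of all tested genes were higher and 5.9% lower. Of the 48, 18 were higher and 1 lower at that threshold. The groups did not overlap for 12 that were higher and 1 that was lower, against 13.7% and 9.25% of all tested genes. The 8 genes of smallest p were all higher in KO libraries, with limma adjusted p of 0.0828 to 0.126. Kng2, a paralog of Kng1, was at 87.6, 170 and 57.3 in WT and at 191, 332 and 496 in KO libraries, without overlap (log2 change 1.72). Hrg, which encodes the plasma protein histidine-rich glycoprotein, was at 444, 710 and 170 in WT and at 827, 1227 and 1679 in KO libraries, without overlap (log2 change 1.66).

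The others included inhibitors, cofactors and a receptor. Serpinb2, an inhibitor of the serpin family, had a log2 change of 1.71. Tfpi2, a protease inhibitor related to the tissue factor pathway inhibitor, had 1.56 and Pros1, which encodes protein S, the cofactor of protein C, had 0.82. F8, the cofactor of activated factor IX and a product of sinusoidal endothelium, was at 1580, 2231 and 1224 in WT and at 2215, 4713 and 4435 in KO libraries (log2 change 1.14). F2r, a thrombin receptor, had a log2 change of 1.05.

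Per kilobase of transcript, the members fell in a wide range of levels. C3 had the highest mean over the 6 libraries, with 7403 normalised counts per kilobase in WT and 11305 in KO libraries, followed by C1qb at 8175 and 7248, C1qa at 6302 and 5638 and C1qc at 5920 and 5724. The ranges of these 4 genes over the libraries overlapped, so their order is not settled by 3 libraries per genotype. Cfp, at 2583 in WT and 2476 in KO libraries, lay below C1q in every library. The highest hepatocyte-made genes were Fgg at 1074 and 3079, Fga at 717 and 2349 and F2 at 648 and 1673. F10, at 895 in WT libraries, stood between Fgg and Fga there, while in KO libraries, at 941, it stood below Plg, at 1072.

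**Figure D3:**
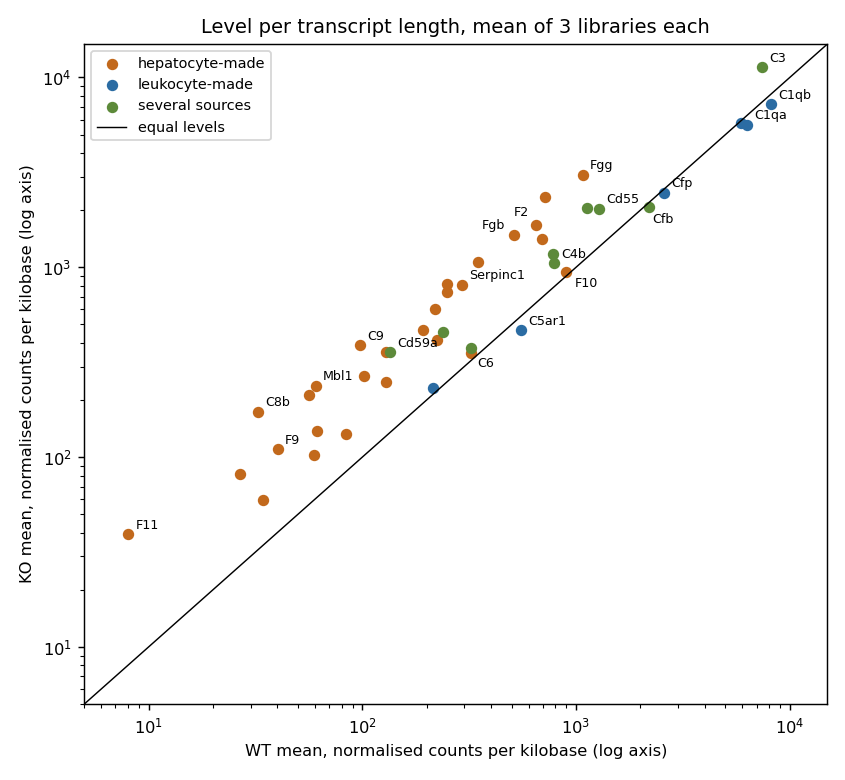
Mean level of each tested member in KO (vertical) against WT libraries (horizontal), in normalised counts per kilobase of transcript on log axes, with 3 libraries in each mean. The hepatocyte-made members lie above the line of equal levels, F10 and C6 next to it, and C1qa, C1qb, C1qc, Cfp, C5ar1 and Cfb lie just below it.

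The libraries rose and fell differently for the classes. The profile of each gene over the 6 libraries was set against the mean profile of each of 12 marker lists, again by the root mean square difference of centred log2 values, as a description. The nearest list was hepatocytes for 15 of 28 hepatocyte-made genes, endothelial cells for 9, macrophages for C6 and F10, and stellate cells for F5 and Klkb1. It was macrophages for 5 of 6 leukocyte-made genes, all but C5ar1, and stellate cells for 7 of the 9 tested genes of several sources, all but Cd59a and Cfb. Of all tested genes 3.70% were nearest to hepatocytes, 8.34% to endothelial cells, 11.1% to macrophages and 10.7% to stellate cells. Mbl1 was the closest hepatocyte-made gene to the hepatocyte profile, at 0.21, and C4b the closest of its class to the stellate profile, at 0.13. C6 was at 0.35 from the macrophage profile and at 0.91 from the hepatocyte profile, and F10 was at 0.31 and 0.82. The profiles of these 2 genes thus did not follow the name of their class.

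Between the hepatocyte and macrophage lists alone, 24 of 28 hepatocyte-made genes were nearer to hepatocytes, and the 4 others were C6, F10, F5 and Masp1. None of the 6 leukocyte-made genes was nearer to hepatocytes, nor were 5 of the 9 of several sources, where 15.4% of all tested genes were. With each genotype centred on its own mean, the difference between genotypes is removed. The nearest list of the 28 was then macrophages for 15, endothelial cells for 6, hepatocytes for 3, stellate cells for 3 and dendritic cells for 1. The shares of all tested genes for these lists were 5.63%, 11.9%, 6.58%, 6.97% and 26.8%. Of the 6 leukocyte-made genes 4 were nearest to macrophages under this centring, and C3ar1 and C5ar1 were nearest to hepatocytes. For the genes of several sources stellate cells were nearest for 7 of 9 under this centring too.

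**Figure D4:**
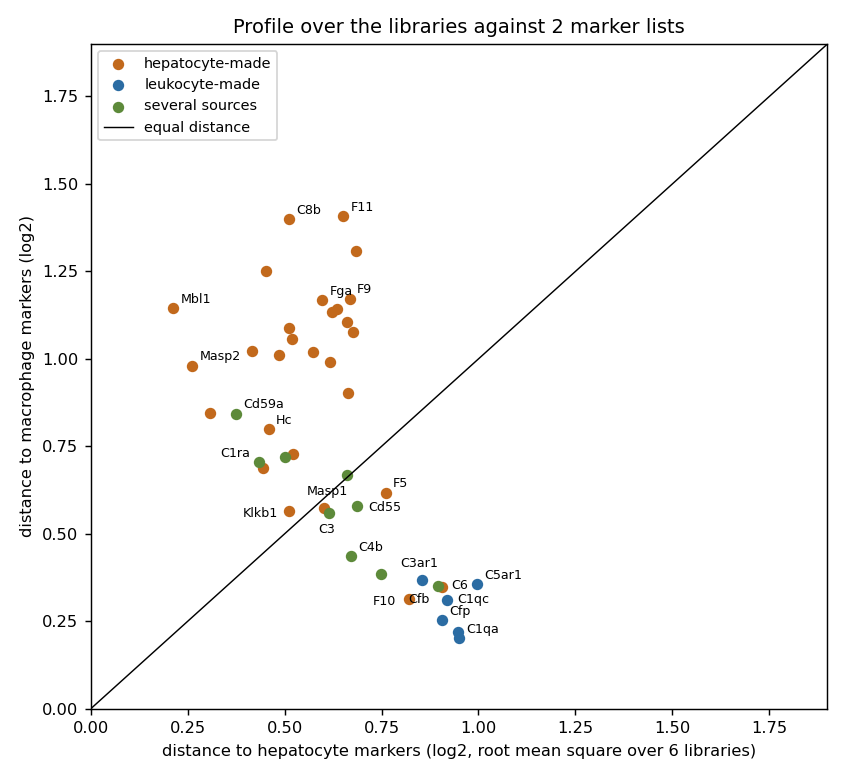
Distance of each tested member from the mean profile of the hepatocyte markers (horizontal) and of the macrophage markers (vertical), as the root mean square difference of centred log2 values over 6 libraries. Of the hepatocyte-made members 24 of 28 lie above the line of equal distance, and C6, F10, F5 and Masp1 lie below it with the 6 leukocyte-made members.

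Differences between 2 genes of the same library hardly depend on the factor of the library. Of these, 7 were tested by an exact two-sided permutation over the 20 ways to divide the libraries, which cannot give a p below 0.1. Fga minus C1qa, in log2, was -2.06, -1.98 and -2.83 in WT and -1.05, -0.46 and 0.23 in KO libraries, a difference of 1.86 between genotypes (exact permutation p = 0.1, adjusted over the 7 tests 0.233). F7 minus F10 was -3.68, -1.77 and -2.55 in WT and -1.74, -1.10 and -0.75 in KO libraries, a difference of 1.47 with WT 2 and KO 1 nearly equal. C9 minus C6 was -1.83, -2.16 and -3.12 in WT and -0.30, -0.68 and -0.07 in KO libraries, a difference of 2.02. For all 3 pairs every KO value exceeded every WT value, which gives the smallest p the design allows. These pairs were chosen after their values were seen. Their p-values and the adjustment over the 7 tests do not account for that choice, so no conclusion is drawn from them.

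The other 4 differences set Fga against hepatocyte markers and C1qa against macrophage markers. Fga minus Alb was -5.28, -4.53 and -5.05 in WT and -4.78, -4.39 and -3.84 in KO libraries, a difference of 0.62 (exact permutation p = 0.2, adjusted 0.28), and against Ttr, the hepatocyte gene of transthyretin, the difference was 0.37 (exact permutation p = 0.5). C1qa minus Adgre1 was -0.26, 0.44 and -0.20 in WT and 0.13, 0.32 and 0.06 in KO libraries, a difference of 0.18 (exact permutation p = 0.5). Against Csf1r, the receptor of a macrophage growth factor, it was 0.87 (exact permutation p = 0.2, adjusted 0.28). The groups overlapped in each of these 4 differences.

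**Figure D5:**
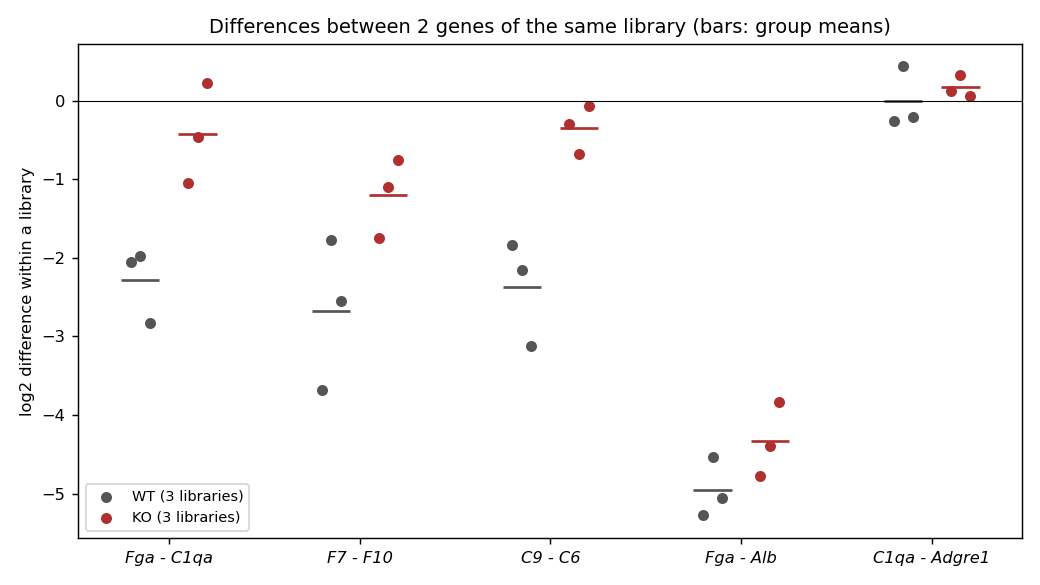
Log2 difference between 2 genes of the same library, with a point for each library and a line at the mean of each genotype. The WT and KO points do not overlap for Fga minus C1qa, F7 minus F10 and C9 minus C6, and overlap for Fga minus Alb and C1qa minus Adgre1.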

How the data were processed

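The 6 libraries, 3 per genotype, held RNA of liver cells selected by F4/80. Per the file headers, the deposited signal is a normalised count for each of 79382 transcripts. The authors' values were whole multiples of the smallest value of the library (100%, tolerance 0.001), so whole reads were recovered. The tools DESeq 1.8.3, HTSeq 0.5.3, STAR 2.4.0k, SAMtools and bcl2fastq 2.17 and the build GRCm38.p4 are named, without roles, per the submitters' processing notes. Annotation release, strand setting and treatment of multiply matching reads were not given in the sources used here.

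GENCODE (GRCm38) matched 78332 transcripts to 23394 genes, and 1050 transcripts, 1.03% to 1.32% of reads, were not analysed. The transcript of highest mean was kept per gene, and 27 members had several. edgeR's (4.0.16) filterByExpr left 15619 genes and 7775 were not tested. limma (3.58.1) tested log2(value + 1), with a trended prior and genotype as the only term. P-values were two-sided, adjusted by Benjamini-Hochberg, with calls under 0.05. Fold changes on this scale understate low genes.

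Members and lists were chosen with earlier results of these data known. Values in every library are given for leukocyte-made genes, called genes, fibrinogen chains, C3, C4b, Cfb, Cfd and the 3 highest per kilobase of a class; F7, F10 and C6 were added after seeing values. Of the other cascade genes, called genes and the 8 of smallest p are named, except 1 that is not reported here, and of each marker list at most 4 genes. Profiles were compared with 12 marker lists of 92 genes, and the 5 genes nearest to C1qa and Fga were taken among genes with a mean of at least 500.

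In simulated data for KO against WT (15619 genes), limma called 18%, 78%, 88% and 90% of 50 genes changed by 1, 2, 3 and 4 in log2, and 6 of 15419 unchanged genes. Alternatives were pseudocounts of 0.5 and 5, no filter, a CPM of at least 1 in 3 libraries, TMM factors, total reads, edgeR's quasi-likelihood test on the recovered reads (282 genes called), DESeq2 (1.42.0), limma-voom, summed transcripts, leaving out each library and a replicate block. Motifs, F7 minus F10, C9 minus C6, Fga minus C1qa and centring within genotype were added after seeing the data.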

Additional observations from a re-analysis of the deposited data

How the results depend on the processing

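In the simulated data, with 3 libraries per genotype, most log2 changes of 1 were missed. Genes were drawn independently there, while a library of these data could shift many genes together, so the simulated rates may not hold here. The calls of single genes moved with the library left out more than with the pseudocount or the low-count filter. The number of genes called over all genes, 381, was 1409 with DESeq2, 539 with total reads and 297 with TMM factors. It was 233 with the transcripts of a gene summed, and 8 to 809 when 1 library was left out. The 3 calls among the hepatocyte-made genes were 11 with DESeq2, 8 with total reads, 1 with TMM factors, 1 with edgeR, 0 with summed transcripts and 0 to 6 without 1 library. The call among the genes of several sources (Cd59a) was lost with TMM factors, edgeR and summed transcripts (0 calls each) and there were 0 to 1 without 1 library. For the other cascade genes, where limma called 0, there were 8 calls with DESeq2, 2 with total reads and 0 to 6 without 1 library. The count of leukocyte-made genes called lower was 0 in every setting run. The cause of these differences was not tested.

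It is not known whether the replicate numbers pair the libraries. Same-numbered WT and KO libraries had correlations of -0.01, 0.09 and -0.14 in their deviations from the group means. With so few libraries per genotype these values cannot show whether a pairing exists. With a replicate block 539 genes and 0 hepatocyte-made genes were called, and no pairing was used.

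With the summed exon length of each gene, Fga made up 27.9% and Fgb 26.9% of fibrinogen transcripts over the 6 libraries, and C1qa, C1qb and C1qc made up 34.7%, 44.4% and 21.0% of C1q transcripts.

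The sign of a log2 change reversed only for members near 0. With DESeq2 it was -0.093 for C1qc, -0.10 for Cfp and -0.11 for Cfb, and with edgeR -0.10 for C1qc, -0.11 for Cfp and -0.12 for Cfb. With TMM factors it was -0.011 for Cfp and -0.032 for Cfb, with limma-voom -0.040 for Cfp and -0.081 for Cfb, and with total reads -0.036 for Cfp, -0.010 for C3ar1 and -0.057 for Cfb. Without 1 library the ranges were -0.14 to 0.41 for C6, -0.26 to 0.34 for F10, -0.37 to 0.34 for C1qa, -0.44 to 0.37 for C1qb and -0.18 to 0.56 for C1qc. They were -0.23 to 0.44 for Cfp, -0.29 to 0.31 for C3ar1, -0.50 to 0.010 for C5ar1 and -0.45 to 0.32 for Cfb.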
